A study of Mus musculus with 8 samples.

Results

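Spatial transcript counts of embryonic mouse diaphragm were read for 7 genes around the MEK-ERK pathway. They were chosen by symbol, with earlier results of these data known. They are the transcription factors *Etv4* and *Etv5*, the kinase *Map2k1*, and the feedback inhibitors *Spry1*, *Spry2*, *Spry4* and *Dusp6*. All 7 were among the 19465 genes with a probe, and all 7 passed the filter on low counts in every comparison. Growth factor receptors with tyrosine kinase activity act through Ras, Raf and MEK to phosphorylate ERK, and *Map2k1* encodes MEK1, one of the kinases that phosphorylate ERK. *Etv4* and *Etv5* (also called PEA3 and ERM) are ETS family transcription factors that commonly rise in transcription when ERK is active. In skeletal muscle, *Etv5* is known for driving the transcription of synaptic genes in the nuclei below the neuromuscular junction (NMJ). *Dusp6* is a phosphatase that removes phosphate from ERK, and the Sprouty proteins *Spry1*, *Spry2* and *Spry4* restrain signaling between the receptors and ERK.

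The 8 horizontal sections, each from a separate embryo, were formalin-fixed, paraffin-embedded and measured on Visium slides, where each spot of 55 µm diameter, placed every 100 µm, holds RNA from several cells. There were 3 control sections at E14.5, 1 CaV1.1 knockout (KO) section at E14.5, 2 control sections at E18.5, 1 CaV1.1 KO section at E18.5 and 1 β-catenin conditional knockout (cKO) section at E18.5. The KO embryos lacked CaV1.1, the voltage sensor of skeletal muscle contraction, in the whole body (dysgenic, CaV1.1 -/-), and the cKO embryos carried floxed β-catenin alleles deleted by Cre under the human skeletal actin promoter (HSA-Cre), which acts in muscle fibers and not in nerve. Controls kept at least 1 working allele of each gene and could carry the Cre or a floxed allele, as could the KO. The cKO came from parents heterozygous for CaV1.1 and could carry a null CaV1.1 allele. Sex and litter were not given in the sources used here.

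Spots were sorted by transcripts other than those of the 7 genes. Muscle spots were those with a high sum of 9 contractile genes, the center was the top 15% of them by a score of 7 endplate genes (*Chrna1*, *Chrnd*, *Chrng*, *Musk*, *Ache*, *Prkar1a* and *Ufsp1*), the periphery was the top 15% by 4 genes of the fiber ends (*Col22a1*, *Ankrd1*, *Rxrg* and *Uchl1*), and the rest was intermediate. Sections held 683 to 3460 spots with at least 1000 unique molecular identifiers (UMIs), of which 491 to 3092 were muscle and 73 to 444 were center, and 14179161 to 82859104 UMIs in all. Levels are CPM, the UMIs of a gene per 1000000 UMIs of a region. Where marked TMM, the CPM were scaled by edgeR's trimmed mean factor. A sum over spots cannot tell fewer cells from less RNA per cell, and intervals from counts cover counting error only. Each mutant group is 1 section, so its spread was borrowed from the control sections. *Cacna1s*, which encodes CaV1.1, read 16.5, 14.96 and 18.4 TMM CPM in muscle of E14.5 controls and 13.4 in the KO, and 84.4 and 87.3 in E18.5 controls against 29.7 in the KO, a fall of 1.53 ± 0.15 (SE) on the log2 scale (edgeR adjusted p = 0.00133). *Ctnnb1*, which encodes β-catenin, read 104.6 and 97.4 in E18.5 controls and 96.2 in the cKO. Where the probes lie relative to the deleted exons was not given, and spots hold other cells than fibers, so the level of *Ctnnb1* checks little.

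**Figure D1:**
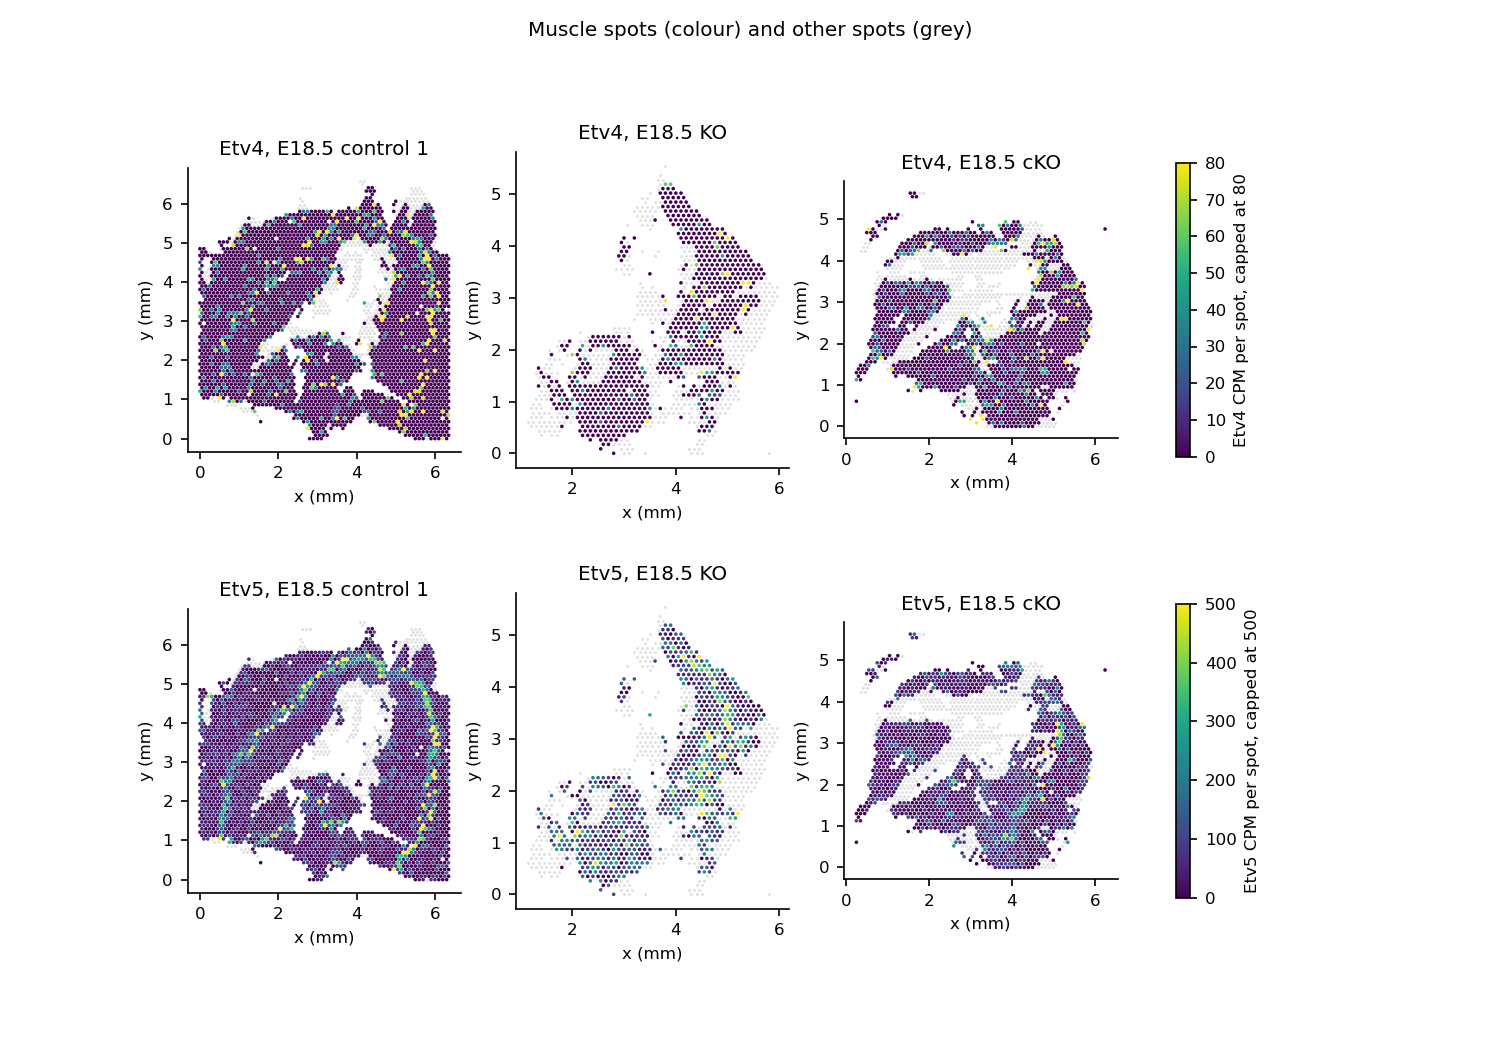
CPM of *Etv4* (upper row, colour capped at 80) and *Etv5* (lower row, colour capped at 500) in single muscle spots of E18.5 control 1, the E18.5 KO and the E18.5 cKO, with other spots in grey and positions in mm. In the control, spots rich in both genes formed a narrow line along the middle of the muscle, whereas in the KO *Etv5*-rich spots were spread over the muscle and in the cKO the line was interrupted.

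Sequences upstream of the transcription start are shown for the 3 genes with a RefSeq promoter entry and the steepest center profiles, since *Etv4* and *Etv5* are ETS factors and the 3 genes share their position in the muscle. RefSeq promoter entries (GRCm38.p6) matched 5 of the 7 genes, *Etv4* and *Spry4* being the others. Each sequence is the 250 bases before the start, written 5′ to 3′ on the strand of the gene, with every GGAA or TTCC (the ETS core on either strand) in capitals. *Etv5* (chromosome 16, 22381313 to 22439570, minus strand) has entries for 2 starts, the upstream bases lying at chr16:22439571-22439820 and chr16:22438369-22438618. Those of *Map2k1* (chromosome 9, 64185769 to 64253605, minus strand) lie at chr9:64253606-64253855 and those of *Dusp6* (chromosome 10, 99263231 to 99267489, plus strand) at chr10:99262981-99263230.
*Etv5*, outer start: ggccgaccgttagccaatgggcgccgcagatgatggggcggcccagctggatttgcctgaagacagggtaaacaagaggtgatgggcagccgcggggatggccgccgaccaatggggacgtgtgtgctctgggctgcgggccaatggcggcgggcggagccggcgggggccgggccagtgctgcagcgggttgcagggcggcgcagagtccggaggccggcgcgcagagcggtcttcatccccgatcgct
*Etv5*, inner start: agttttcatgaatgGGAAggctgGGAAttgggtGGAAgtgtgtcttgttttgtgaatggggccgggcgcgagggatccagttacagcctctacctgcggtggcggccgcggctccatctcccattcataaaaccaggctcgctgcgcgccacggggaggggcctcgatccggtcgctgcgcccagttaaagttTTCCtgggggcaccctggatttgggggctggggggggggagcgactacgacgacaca
*Map2k1*: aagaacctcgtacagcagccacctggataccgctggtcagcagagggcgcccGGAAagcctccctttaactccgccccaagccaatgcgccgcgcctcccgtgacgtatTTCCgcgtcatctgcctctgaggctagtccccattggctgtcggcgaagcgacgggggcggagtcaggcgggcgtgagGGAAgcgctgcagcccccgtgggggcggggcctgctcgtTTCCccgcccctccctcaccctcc
*Dusp6*: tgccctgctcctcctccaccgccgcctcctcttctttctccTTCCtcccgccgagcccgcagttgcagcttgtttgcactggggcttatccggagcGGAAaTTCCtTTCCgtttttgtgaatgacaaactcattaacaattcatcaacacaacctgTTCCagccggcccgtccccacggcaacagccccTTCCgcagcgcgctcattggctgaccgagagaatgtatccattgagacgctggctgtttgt
The outer start of *Etv5* has 0 cores and the inner one 4, *Map2k1* has 4 and *Dusp6* has 6. Of all 32851 promoters in the table, 93.4% hold at least 1 core in these 250 bases, with a median of 3, so the cores do not set the 3 genes apart. The longer letters CCGGAA or TTCCGG (the N-box of synaptic genes, which overlaps the core) occur once in the upstream bases of *Map2k1* and in none of the other 3 sequences, and 12% of all promoters hold them.

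The first question was where along the muscle fiber the genes were transcribed. In E18.5 controls all 7 genes were higher in the center than in intermediate muscle, led by *Etv4*, *Etv5*, *Dusp6* and *Map2k1* with 3.25-fold to 4.96-fold differences. In E14.5 controls 6 of the 7 were higher in the center, by 1.75-fold at most, and *Etv4* was not among them.

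In E14.5 controls 1, 2 and 3, *Etv5* read 131.8, 113.5 and 136.8 TMM CPM in intermediate muscle and 255.0, 213.5 and 182.0 in the center. In E18.5 controls 1 and 2 it read 53.3 and 48.5 in intermediate muscle and 272.2 and 230.6 in the center. Center values were above intermediate ones in all 5 control sections, and the gap was widest at E18.5, when intermediate levels were low. The log2 difference was 0.81 ± 0.07 (SE) at E14.5 (edgeR adjusted p = 1.39e-10) and 2.30 ± 0.08 at E18.5 (edgeR adjusted p = 2.62e-22). *Etv5* UMIs of the center made up 33.3%, 26.9% and 19.7% of those in all muscle at E14.5, against 49.0% and 47.1% at E18.5, while 15.2% to 20.1% of all muscle UMIs of these 5 sections came from the center.

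*Etv4* (chromosome 11, 101769747 to 101785310) had another course. At E14.5 its centers read 15.9, 13.9 and 12.9 TMM CPM against 16.9, 16.4 and 18.6 in intermediate muscle, from 74, 79 and 31 UMIs in the center. Each center was slightly lower than its intermediate muscle, but the log2 difference of -0.25 ± 0.12 did not pass the test (edgeR adjusted p = 0.169). At E18.5 the centers read 32.9 and 28.1 against 6.4 and 5.9, from 291 and 206 UMIs. Both centers stood far above both intermediate values, a log2 difference of 2.31 ± 0.10 (edgeR adjusted p = 1.45e-18) and a fold of 4.96. The ratio of CPM within a section was 5.68 (95% interval 4.76 to 6.77) in E18.5 control 1 and 5.15 (4.19 to 6.32) in control 2.

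*Map2k1* read 273.2, 258.6 and 217.7 TMM CPM in E14.5 centers against 177.5, 150.6 and 158.3 in intermediate muscle, and 486.2 and 395.6 against 140.7 and 129.9 at E18.5. The kinase was higher in every control center, by 0.64 ± 0.05 on the log2 scale at E14.5 (edgeR adjusted p = 4.82e-11) and 1.70 ± 0.06 at E18.5 (edgeR adjusted p = 1.04e-22).

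Among the feedback inhibitors, *Dusp6* read 148.2, 141.4 and 122.7 TMM CPM in E14.5 centers against 83.3, 83.6 and 95.1 in intermediate muscle, and 299.4 and 293.6 against 76.7 and 74.8 at E18.5. The groups did not overlap at either stage, and the log2 difference was 0.69 ± 0.06 (edgeR adjusted p = 2.58e-10) and then 1.97 ± 0.06 (edgeR adjusted p = 8.61e-24). The Sprouty genes differed less. *Spry4* was 0.33 ± 0.07 higher in the center at E14.5 and 0.73 ± 0.09 higher at E18.5, *Spry1* was 0.17 ± 0.05 and 0.51 ± 0.05 higher, and *Spry2* was 0.18 ± 0.05 and 0.25 ± 0.06 higher (edgeR adjusted p = 0.0269 or less for each). The E14.5 calls of the Sprouty genes ended without E14.5 control 1 or control 2: *Spry1*, *Spry2* and *Spry4* gave 0.11, 0.16 and 0.29 without E14.5 control 1 (edgeR adjusted p = 0.394, 0.133 and 0.069) and 0.14, 0.19 and 0.26 without E14.5 control 2 (edgeR adjusted p = 0.269, 0.0903 and 0.106). At E18.5 *Spry2* gave 0.16 without E18.5 control 1 (edgeR adjusted p = 0.55).

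The 6 of 7 genes called higher at E14.5 compare with 7.24% of the 14152 genes tested that were called higher (14.9% in either direction), and the 7 of 7 at E18.5 with 4.08% (11.1% in either direction). From these same sections the study had already reported *Etv4*, *Etv5* and *Map2k1* near the muscle center or with *Chrna1*. For these genes the shares are not independent support. The median log2 difference of the 7 genes was 0.33 at E14.5 and 1.70 at E18.5, against -0.03 and -0.04 for all genes. Regions set only by the distance of muscle spots from other tissue, without endplate genes, gave 0 calls among the 7 genes at either stage (edgeR), and 6 and 29 calls over all genes. As a scale, *Chrna1*, the acetylcholine receptor subunit that helped to define the center, differed by 0.99 and 2.35. Schwann cell markers also moved with the center: of *Sox10*, *Foxd3* and *S100b*, 2 of 3 were higher there at each stage, and their summed level in E18.5 controls was 33.0 and 41.6 CPM in the center against 18.95 and 19.8 in intermediate muscle, with no marker at 0. Their part in the result was not tested.

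**Figure D2:**
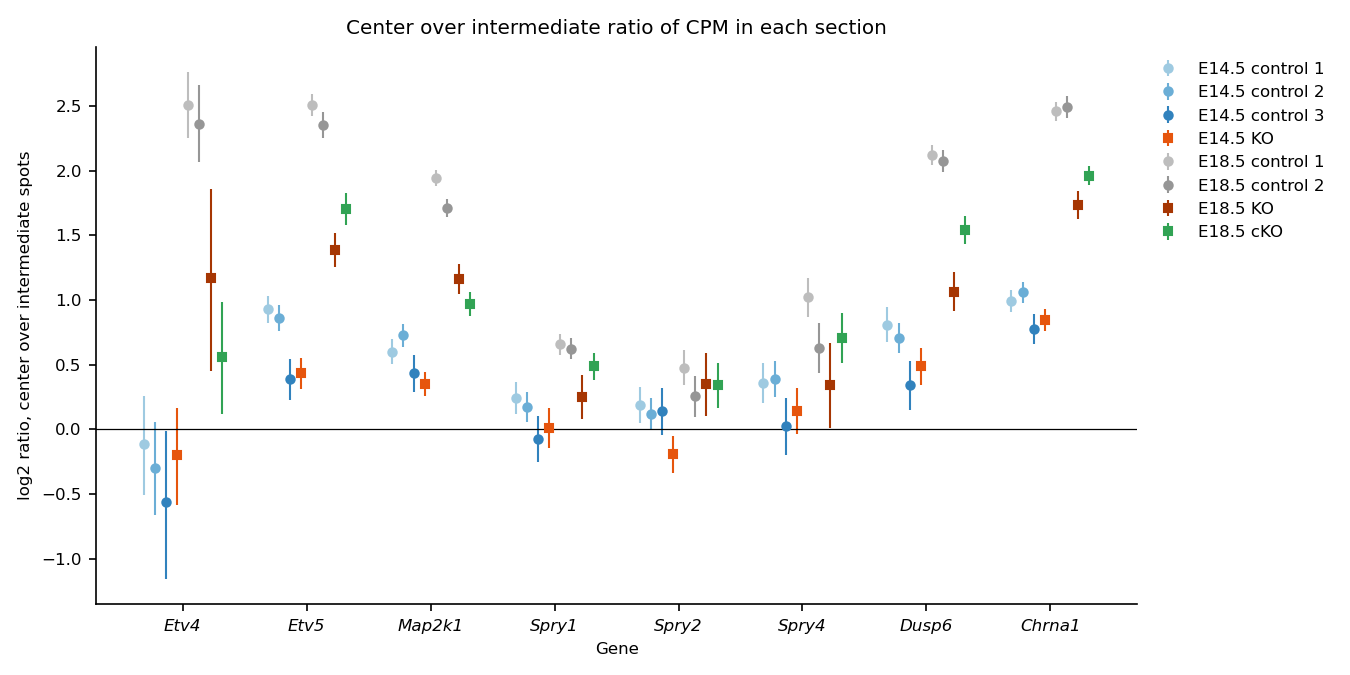
Log2 ratio of CPM in center over intermediate spots (y axis) for the 7 genes and *Chrna1* (x axis) in each of the 8 sections, with 95% intervals from the counts, circles for controls and squares for mutants. The 2 E18.5 controls reached 2.51 and 2.36 for *Etv4* and 2.51 and 2.35 for *Etv5*, and both E18.5 mutants lay below them for *Etv4*, *Etv5*, *Map2k1*, *Dusp6* and *Chrna1*.

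The center enrichment itself differed between the stages for 6 of the 7 genes, each more enriched at E18.5, where 5.28% of all genes tested were called in that direction and 12.4% in either. The log2 difference was 2.56 ± 0.15 for *Etv4* (edgeR adjusted p = 2.11e-14), 1.497 ± 0.10 for *Etv5*, 1.28 ± 0.08 for *Dusp6* and 1.06 ± 0.08 for *Map2k1* (edgeR adjusted p = 1.71e-12 or less for the 3). It was 0.40 ± 0.12 for *Spry4* (edgeR adjusted p = 0.0229) and 0.34 ± 0.08 for *Spry1* (edgeR adjusted p = 0.00171). *Spry4* gave 0.32 without E14.5 control 3 and 0.20 without E18.5 control 1 (edgeR adjusted p = 0.0822 and 0.528). *Spry2* gave 0.06 ± 0.08 and did not pass (edgeR adjusted p = 0.703). *Chrna1* gave 1.35. The summed endplate genes fell in intermediate muscle from 1648 to 2044 CPM at E14.5 to 654 and 681 CPM at E18.5, whereas in the center they went from 3255 to 3649 down to 2777 and 2719.

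At E18.5 levels dropped from the center spots to the muscle spots next to them. In E18.5 control 1 *Etv5* read 209.3 CPM in center spots, 52.6 in muscle spots up to 100 µm from the nearest center spot, 35.8 between 100 and 200 µm and 35.9 beyond 400 µm. Control 2 read 172.6, 42.9, 30.6 and 36.1 at the same distances. Nearly all of the excess therefore lay in the spots classed as center. These were picked by endplate genes that rose and fell with *Etv5* over spots, and the spots beside them had failed that cut. The drop is thus in part set by the choice of spots and does not measure a width. *Dusp6* fell from 230.2 to 69.4 CPM over the first 100 µm in control 1 and from 219.8 to 60.6 in control 2, and *Map2k1* from 373.8 to 122.1 and from 296.1 to 105.8. *Etv4* fell from 25.3 to 5.9 and from 21.0 to 5.3 and read 7.0 and 7.6 beyond 400 µm.

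**Figure D3:**
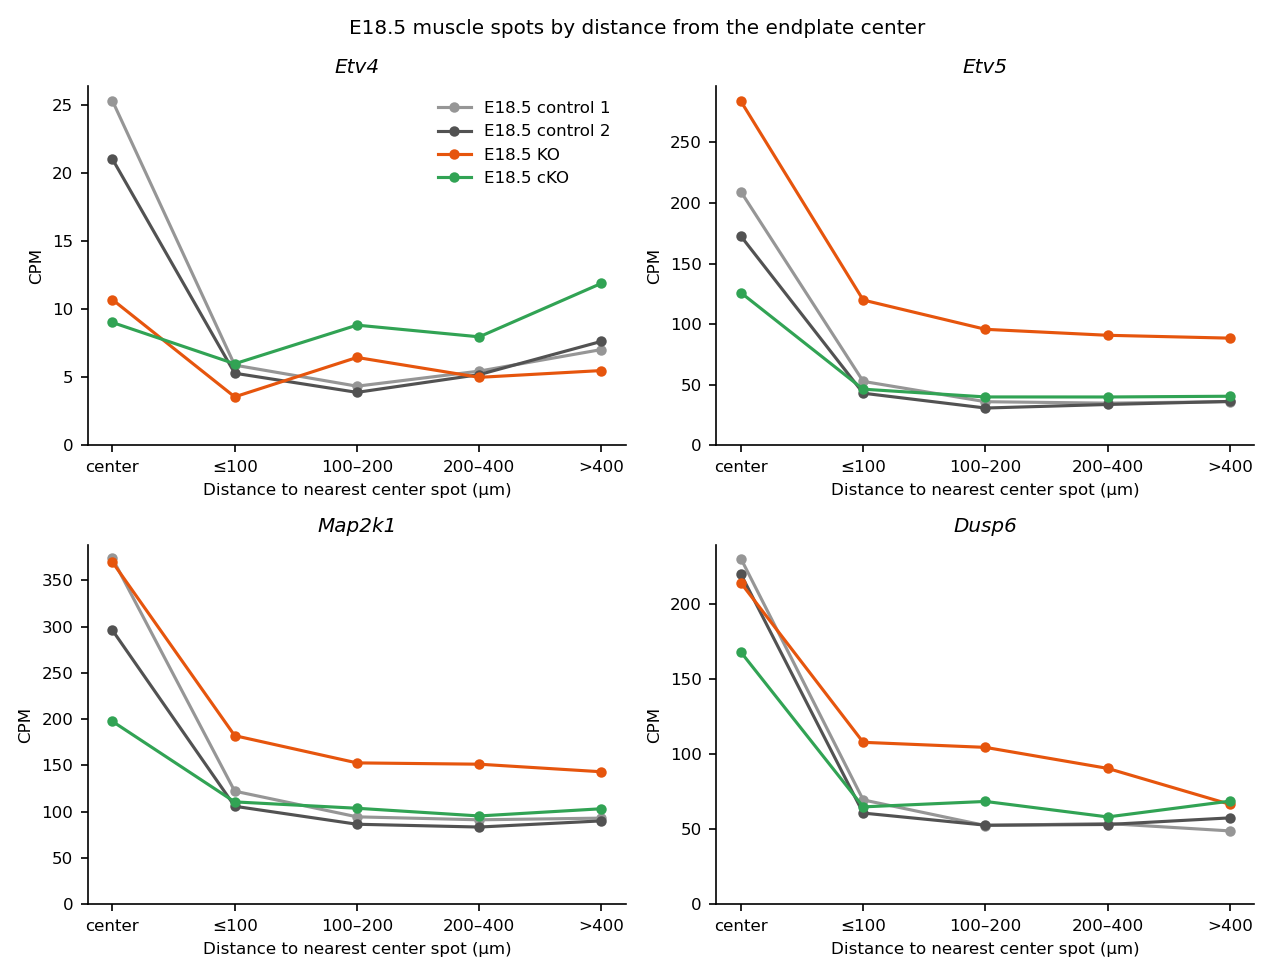
CPM of *Etv4*, *Etv5*, *Map2k1* and *Dusp6* (y axes) in E18.5 muscle spots grouped by distance to the nearest center spot in µm (x axis), with 1 line per section. From center spots to those up to 100 µm away the controls dropped, from 209.3 to 52.6 CPM of *Etv5* in control 1. The KO held 88.4 CPM of *Etv5* beyond 400 µm against 35.9 and 36.1 in the controls and 40.4 in the cKO.

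*Etv4* was also higher in the periphery, the spots scored by genes of the fiber ends. In the periphery *Etv4* read 23.9, 23.5 and 20.9 TMM CPM in E14.5 controls, above the 16.9, 16.4 and 18.6 of intermediate muscle, and 15.04 and 15.9 in E18.5 controls, above 6.4 and 5.9. The log2 difference was 0.43 ± 0.11 at E14.5 (edgeR adjusted p = 0.0111) and 1.32 ± 0.12 at E18.5 (edgeR adjusted p = 1.51e-10). With only the upper 75% of muscle spots by contractile genes, *Etv4* at E18.5 no longer passed (edgeR adjusted p = 0.0853). Its lowest value at E18.5 under any alternative was 0.46. Of the other genes, *Etv5* was lower in the periphery at E14.5 by -0.31 ± 0.08 (edgeR adjusted p = 0.015), and *Spry4* and *Dusp6* were higher at E18.5 by 0.35 ± 0.10 and 0.19 ± 0.07 (edgeR adjusted p = 0.00591 and 0.0266). The 2 calls at E14.5 ended without E14.5 control 1 or control 2: *Etv4* gave 0.40 without E14.5 control 1 and 0.35 without E14.5 control 2 (edgeR adjusted p = 0.128 and 0.309) and *Etv5* -0.21 and -0.37 (edgeR adjusted p = 0.277 and 0.0682). Without E18.5 control 2, *Spry4* gave 0.21 and *Dusp6* 0.11 at E18.5 (edgeR adjusted p = 0.245 and 0.525), while *Spry1*, at 0.15, passed without any 1 of the E14.5 controls and *Etv5*, at 0.22, without E14.5 control 3. These are 2 genes of 7 called at E14.5, with 7.74% of all genes called, and 3 of 7 at E18.5, with 30.7%. Tendon markers moved with the periphery: *Tnmd*, *Scx*, *Fmod* and *Col12a1* summed to 434 to 584 CPM there against 298 to 389 in intermediate muscle at E14.5, and to 820 and 1208 against 199 and 279 at E18.5, with none at 0. Their part in the result was not tested. At E18.5 muscle spots within 100 µm of non-muscle spots read 13.8 and 16.1 CPM of *Etv4*, against 8.3 and 7.3 in those over 300 µm away.

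Against the spots outside muscle, 6 of the 7 genes were higher in muscle at E14.5, where 21.8% of all genes were called higher and 37.4% in either direction. *Etv5* differed by 1.03 ± 0.07, *Map2k1* by 1.0 ± 0.07, *Spry4* by 0.85 ± 0.09, *Spry2* by 0.64 ± 0.10, *Spry1* by 0.41 ± 0.07 and *Dusp6* by 0.39 ± 0.08 on the log2 scale (edgeR). *Etv4* gave 0.22 ± 0.12 (edgeR adjusted p = 0.183). At E18.5, when 53.2% of all genes were called, *Map2k1* was 0.98 ± 0.08 higher in muscle, and *Etv4* was lower by -0.39 ± 0.14 (edgeR adjusted p = 0.0461), with 12.1 and 10.9 TMM CPM in muscle and 16.7 and 18.3 outside. *Dusp6*, *Etv5* and *Spry2* were called higher at 0.52 ± 0.09, 0.46 ± 0.08 and 0.38 ± 0.12, but in both E18.5 controls their plain CPM were lower in muscle than outside, so the direction of these 3 rests on the TMM scaling. Leaving out E14.5 control 1, E14.5 control 2, E18.5 control 1 or E18.5 control 2 ended the E18.5 call of *Etv4*, with -0.39, -0.39, -0.56 and -0.29. *Spry2* at E18.5 gave 0.38 without E14.5 control 2 and 0.16 without E18.5 control 2, and *Dusp6* at E14.5 gave 0.29 without E14.5 control 2 (edgeR adjusted p = 0.0508, 0.376 and 0.0632).

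Levels in muscle as a whole were then compared between the stages. The 2 Sprouty genes *Spry2* and *Spry4* fell the furthest of the 7, to 0.482-fold and 0.431-fold, and *Etv5* and *Etv4* also fell. *Spry2* read 102.8, 108.1 and 115.0 TMM CPM in E14.5 control muscle and 53.6 and 51.0 at E18.5, a change of -1.05 ± 0.08 on the log2 scale (edgeR adjusted p = 1.89e-05). *Spry4* read 82.7, 73.7 and 82.0 and then 36.7 and 31.7, a change of -1.21 ± 0.10 (edgeR adjusted p = 2.82e-05). Neither gene's stages overlapped. *Etv5* read 150.4, 126.0 and 140.0 and then 89.4 and 78.0 (-0.73 ± 0.11, edgeR adjusted p = 0.000554), and *Etv4* read 17.6, 16.8 and 17.9 and then 12.1 and 10.9 (-0.60 ± 0.11, edgeR adjusted p = 0.0016). In TMM values neither gene was lower in the center at E18.5, but plain CPM of *Etv5* in the center went from 286.3, 250.2 and 219.7 to 209.3 and 172.6, so where *Etv5* fell depends on the scale.

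For the other 3 genes the direction over time depended on the scale. *Spry1* and *Dusp6* were called higher at E18.5 by 0.33 ± 0.10 and 0.25 ± 0.07 (edgeR adjusted p = 0.0197 and 0.0163), but the plain CPM of *Dusp6* went from 109.2, 111.2 and 119.4 to 81.8 and 81.4 and those of *Spry1* from 155.0, 143.1 and 164.5 to 110 and 124.6. The calls also ended without E14.5 control 2, at 0.26 for *Spry1* and 0.22 for *Dusp6* (edgeR adjusted p = 0.0784 and 0.0691), for *Spry1* without E18.5 control 2 (0.24, edgeR adjusted p = 0.112) and for *Dusp6* without E18.5 control 1 (0.24, edgeR adjusted p = 0.0591). *Map2k1* gave 0.05 ± 0.11 (edgeR adjusted p = 0.698), with plain CPM of 222.1, 200.6 and 204.4 and then 140.6 and 122.9. The 9 contractile genes that define muscle spots rose from 21642 to 27362 CPM at E14.5 to 128417 and 131917 CPM at E18.5 in the same spots, and plain CPM of all other genes are shares of what remains. Scaled to those 9 genes, all 7 genes fell with stage, and the median of all genes fell by 3.19 on the log2 scale, and relative to that median each gene stood as in the TMM values. In muscle 6 of the 7 genes were called, 2 higher (33.2% of all genes) and 4 lower (32.3%), and 65.6% of the 14832 genes tested were called in either direction, so the count is not particular to these genes.

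In the center alone *Etv4* rose 2.08-fold between the stages (1.06 ± 0.16 on the log2 scale, edgeR adjusted p = 0.000117) and *Dusp6* rose 2.1-fold (1.07 ± 0.11, edgeR adjusted p = 5.84e-06), both also in plain CPM, where *Dusp6* went from 166.4, 165.7 and 148.1 to 230.2 and 219.8. Both reversed when the counts were scaled to the 9 contractile genes, with the median of all genes. *Etv5* gave 0.18 ± 0.14 (edgeR adjusted p = 0.286) and did not pass, and its plain CPM in the center were lower at E18.5. *Spry2* and *Spry4* were 0.496-fold and 0.506-fold, and *Map2k1* and *Spry1* were called higher at 1.72-fold and 1.49-fold, although the plain CPM of each overlapped between the stages. Of all genes, 62.5% were called in this comparison.

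**Figure D4:**
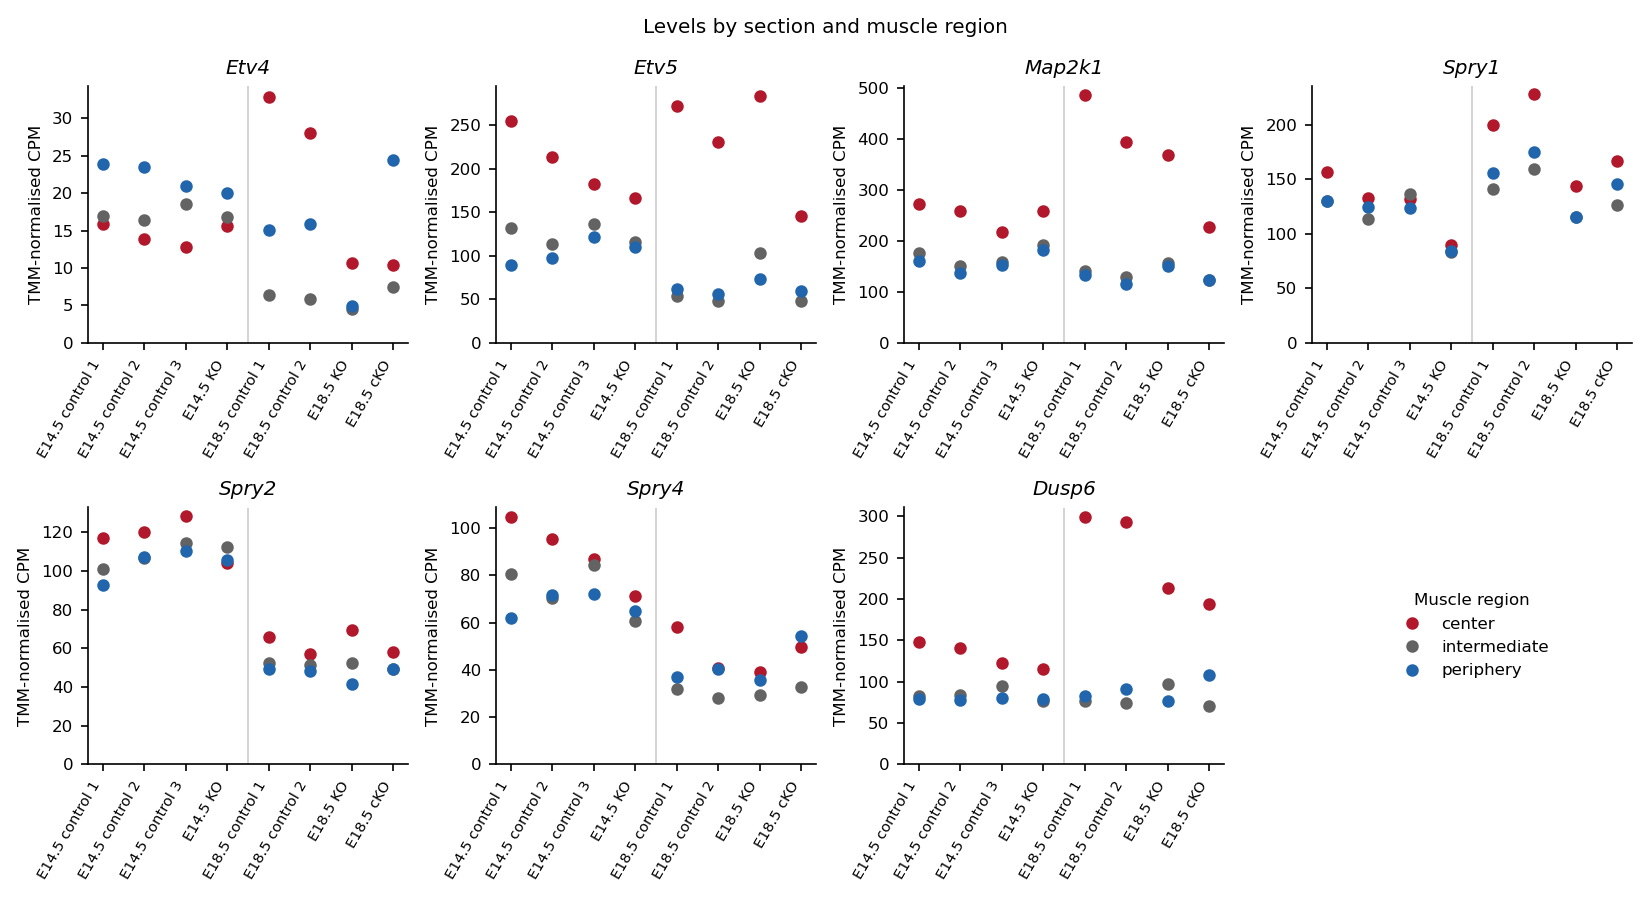
TMM-scaled CPM (y axes, each from 0) of the 7 genes in center, intermediate and periphery muscle of each section (x axis), 1 point per section and region, with E14.5 left of the grey line and E18.5 right of it. *Etv4* moved from 12.9 to 15.9 in E14.5 control centers to 32.9 and 28.1 at E18.5 but read 10.6 and 10.4 in the E18.5 mutants, while *Spry2* separated by stage in every region.

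The KO section at E14.5 differed from the 3 controls in none of the 7 genes, in muscle as a whole (2.08% of all genes called), in the center (1.63%) or in center enrichment (0.0848%). The nearest was *Spry1*, at 84.1 TMM CPM in KO muscle against 135.2, 117.2 and 132.6, below every control but not past the threshold (-0.61 ± 0.13, edgeR adjusted p = 0.068). DESeq2 called *Spry1* in muscle and in the center (adjusted p = 0.000448 and 0.0102), and edgeR did so in the center without either E18.5 control (adjusted p = 0.0347 and 0.0348, -0.67 in both). In KO muscle at E14.5 *Etv5* read 124.5, *Etv4* 16.9, *Dusp6* 84.5 and *Spry4* 63.0 TMM CPM. The median of the 7 genes was -0.16 on the log2 scale and that of all genes 0.00. With an unadjusted p under 0.05 there were 2443 of all genes in muscle, 1903 in the center and 1097 in center enrichment.

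At E18.5 the 2 ETS factors parted in KO muscle. *Etv5* read 124.4 TMM CPM against 89.4 and 78.0 in the controls, above both (0.57 ± 0.14, 1.49-fold, edgeR adjusted p = 0.0223). Without E18.5 control 2 the difference was 0.48 and no longer passed (edgeR adjusted p = 0.057). *Etv4* read 5.4 against 12.1 and 10.9, below both (-1.09 ± 0.16, 0.469-fold, edgeR adjusted p = 0.00415), from 93 UMIs in the KO. *Spry1* fell to 117.5 against 151.5 and 170.4 (-0.45 ± 0.14, edgeR adjusted p = 0.0456), but its plain CPM, 124.3 in the KO against 110 and 124.6, did not fall, so the direction rests on the TMM scaling. This last call ended without E14.5 control 2, E14.5 control 3 or E18.5 control 2 (-0.45, -0.46 and -0.37, edgeR adjusted p = 0.0603, 0.0804 and 0.107), which left *Etv4* alone called without E18.5 control 2. *Map2k1*, *Spry2*, *Spry4* and *Dusp6* gave 0.03 ± 0.15, 0.01 ± 0.11, -0.14 ± 0.14 and -0.02 ± 0.10 and did not pass. The 3 of 7 called compare with 25.7% of all genes. Scaled to the 9 contractile genes, which read 71384 CPM in the KO against 128417 and 131917, the median of all genes rose by 1.40 on the log2 scale and *Etv4* and *Spry1* turned positive (0.31 and 0.95), while relative to that median both stayed below 0.

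In TMM values the excess of *Etv5* in the E18.5 KO lay mostly in muscle spots not classed as center. Center spots were picked by rank of the endplate score within each section, wherever they lay. The paper describes *Chrna1* and *Musk* as spread widely over the muscle of this KO. The KO center therefore need not be the endplate band, and its enrichment values compare classes of spots, not positions along the fiber. *Etv5* read 282.9 TMM CPM in the KO center, against 272.2 and 230.6 in the controls (0.20 ± 0.19, edgeR adjusted p = 0.533, with plain CPM of 284.0 against 209.3 and 172.6). In intermediate muscle of the KO it read 103.6 against 53.3 and 48.5. Center enrichment of *Etv5* was accordingly 1.39 in the KO, on the log2 scale of plain CPM, against 2.51 and 2.35, a difference of -0.85 ± 0.15 (0.553-fold, edgeR adjusted p = 0.00143). *Dusp6* and *Map2k1* also lost enrichment, by -0.84 ± 0.12 (edgeR adjusted p = 0.000467) and -0.48 ± 0.11 (edgeR adjusted p = 0.0105). Without E18.5 control 1 *Map2k1* gave -0.38 and did not pass (edgeR adjusted p = 0.147). *Dusp6* read 213.2 in the KO center against 299.4 and 293.6, and 97.6 in its intermediate muscle against 76.7 and 74.8. The center level of *Dusp6* did not pass (-0.45 ± 0.15, edgeR adjusted p = 0.0748), its plain CPM there were 214.0 against 230.2 and 219.8, and it turned to 0.58 when scaled to the 9 contractile genes. Intermediate levels were not tested between genotypes. For *Map2k1* the KO read 368.4 in the center and 157.6 in intermediate muscle, against 486.2 and 395.6 and 140.7 and 129.9. These 3 of 7 genes compare with 0.678% of all genes called lower and 2.84% in either direction. The median of the 7 was -0.48 against 0.01 for all genes. *Etv5* and *Map2k1* had already been reported by the study as altered in this KO. For them the share is not independent support. All genes also include many without center enrichment, since 4.08% were called higher in the center of E18.5 controls.

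*Etv4* was lower in the KO center at E18.5, with 10.6 TMM CPM from 27 UMIs against 32.9 and 28.1 (-1.49 ± 0.26, 0.356-fold, edgeR adjusted p = 0.00507), the one gene of 7 called there (13% of all genes). *Spry1*, at -0.55 ± 0.16, stood at the threshold (edgeR adjusted p = 0.05) and passed without E14.5 control 1 or without E18.5 control 1 (-0.55 and -0.64). Intermediate muscle of the KO read 4.5 TMM CPM of *Etv4* against 6.4 and 5.9 and the periphery 5.0, from 10 UMIs, against 15.04 and 15.9. The KO section read lower in both muscle regions where *Etv4* stood above intermediate muscle in E18.5 controls. Its periphery was not tested against controls. The enrichment ratio of *Etv4*, 2.25 (95% interval 1.37 to 3.62), lay below the controls, but the difference of -1.08 ± 0.34 did not pass (edgeR adjusted p = 0.0821). The effect of the KO on *Etv4* in muscle was stronger at E18.5 than at E14.5, by -1.05 ± 0.21 on the log2 scale (edgeR adjusted p = 0.0342, 6.4% of all genes called). It was -1.02 without E14.5 control 2 and -1.07 without E14.5 control 3, and then did not pass (edgeR adjusted p = 0.0756 and 0.0895). The like difference for *Etv5*, 0.73 ± 0.19, did not pass either (edgeR adjusted p = 0.0664).

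Other transcripts moved with these values in the E18.5 KO. The summed endplate genes read 1570 CPM in its intermediate muscle against 654 and 681 in the controls, and 3837 in its center against 2777 and 2719, and the enrichment of *Chrna1* fell as well (-0.55 ± 0.11, edgeR adjusted p = 0.00498). The 3 Schwann cell markers summed to 72.5 CPM in KO muscle against 20.9 and 22.9 in the controls, with 91.0 in its center and 69.8 in its intermediate muscle, and macrophage markers to 289 against 81 and 107. Their part in the results was not tested.

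**Figure D5:**
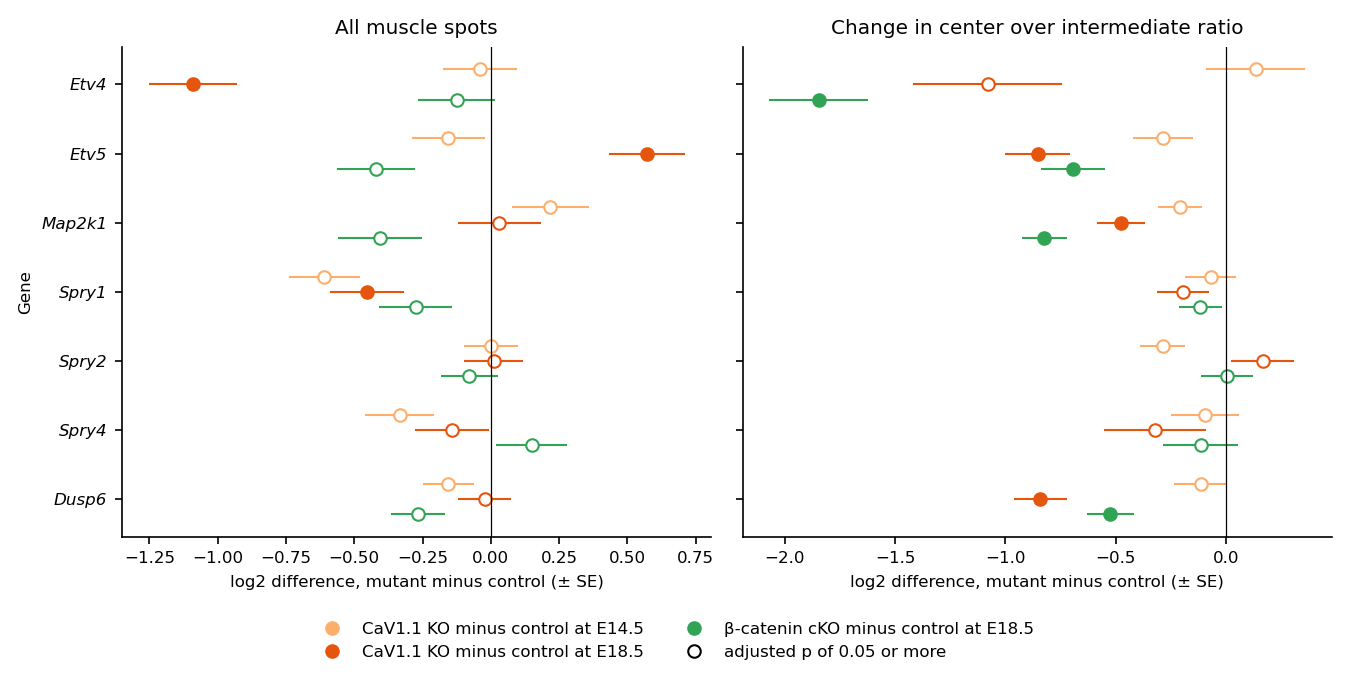
Log2 difference from stage-matched controls with its SE (x axes) for the 7 genes (y axis) in all muscle spots (left) and in the center over intermediate ratio (right), for the E14.5 KO, the E18.5 KO and the E18.5 cKO, each 1 section, with filled symbols at an edgeR adjusted p under 0.05. In E18.5 KO muscle *Etv4* lay at -1.09 and *Etv5* at 0.57 in TMM values (0.31 for *Etv4* when scaled to 9 contractile genes), and the enrichment of *Etv4* in the cKO lay at -1.85.

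In the β-catenin cKO at E18.5 no gene of the 7 passed in muscle as a whole, where 8.8% of all genes were called and 3805 had an unadjusted p under 0.05. *Etv5* read 62.6 TMM CPM against 89.4 and 78.0, and *Map2k1* 136.5 against 193.7 and 168.0, each below both controls (-0.42 ± 0.14 and -0.41 ± 0.15, edgeR adjusted p = 0.115 and 0.148). In the center the cKO was lower for 4 of the 7 genes, with 7.26% of all genes called lower and 11.2% in either direction. *Etv4* read 10.4 TMM CPM there against 32.9 and 28.1 (-1.55 ± 0.23, 0.341-fold, edgeR adjusted p = 0.00179), from 60 UMIs. *Map2k1* read 228.0 against 486.2 and 395.6 (-0.95 ± 0.18, 0.518-fold, edgeR adjusted p = 0.00742). All 4 genes stood below both control centers, the others being *Etv5* at 145.2 against 272.2 and 230.6 (-0.79 ± 0.20, edgeR adjusted p = 0.0262) and *Dusp6* at 193.7 against 299.4 and 293.6 (-0.61 ± 0.15, edgeR adjusted p = 0.0236). The Sprouty genes did not pass, with *Spry2* at 58.3 TMM CPM, *Spry4* at 49.9 and *Spry1* at 166.5 in the cKO center. Without E14.5 control 2, which enters the shared spread, *Etv5* and *Dusp6* no longer passed (-0.79 and -0.61, edgeR adjusted p = 0.054 and 0.0603), nor did *Etv5* without E18.5 control 1 (-0.67, edgeR adjusted p = 0.0548).

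The same 4 genes lost center enrichment in the cKO, where 0.318% of all genes were called lower and 0.424% in either direction. *Etv4* differed by -1.85 ± 0.22 (0.278-fold, edgeR adjusted p = 6.76e-06), *Map2k1* by -0.82 ± 0.10 (0.565-fold, edgeR adjusted p = 6.76e-06), *Etv5* by -0.70 ± 0.14 (edgeR adjusted p = 0.0119) and *Dusp6* by -0.52 ± 0.11 (edgeR adjusted p = 0.0109). *Etv5* gave -0.64 without E18.5 control 1 (edgeR adjusted p = 0.0642). Intermediate muscle of the cKO was close to the controls, with 47.7 TMM CPM of *Etv5* against 53.3 and 48.5, 124.1 of *Map2k1* against 140.7 and 129.9, and 71.2 of *Dusp6* against 76.7 and 74.8. The 3 genes were thus low in center spots of the cKO and near the controls in its intermediate spots. The KO read 103.6 TMM CPM of *Etv5* in intermediate muscle. The median of the 7 was -0.52 and that of all genes 0.00. *Etv4*, *Etv5* and *Map2k1* had already been reported by the study as changed in this cKO section. For them the shares of called genes in the cKO are not independent support. *Chrna1* differed by -0.48 ± 0.10 (edgeR adjusted p = 0.0119), and the summed endplate genes of the cKO read 2792 CPM in the center and 895 in intermediate muscle. The 3 Schwann cell markers summed to 27.0 CPM in the cKO center against 33.0 and 41.6, and their part in the result was not tested.

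At the fiber ends the cKO kept its *Etv4*. Its periphery read 24.4 TMM CPM, from 163 UMIs, against 15.04 and 15.9 in the controls, and the ratio of CPM to intermediate muscle was 3.55 (95% interval 2.88 to 4.38), against 2.68 (2.16 to 3.32) and 3.16 (2.48 to 4.01). In the cKO 13.9% of the *Etv4* UMIs of muscle came from the center, a share like that of all UMIs (13.8%), against 43.8% and 41.0% in the controls. *Dusp6* read 107.8 in the cKO periphery against 82.5 and 91.5, and *Spry4* 54.1 against 37.1 and 40.3. Tendon markers in that region summed to 1150 CPM against 820 and 1208. No test was made of the periphery between genotypes.

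The KO and the cKO at E18.5 share their controls, so they were also compared with each other in muscle. *Etv4* was 1.95-fold higher in the cKO (0.97 ± 0.18, edgeR adjusted p = 0.0222), at 10.5 TMM CPM against 5.4, and *Etv5* was 0.503-fold (-0.99 ± 0.16, edgeR adjusted p = 0.015), at 62.6 against 124.4. Without E14.5 control 3 the value of *Etv4* was 0.97 and did not pass (edgeR adjusted p = 0.0551). The other 5 genes did not pass, and 7.3% of all genes did. Both sections stand alone in their group.

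Further genes of the pathway were read from 5 lists. Of 17 receptors and ligands, 18 members of the Ras-Raf-MEK-ERK cascade, 10 other ETS factors, 12 other feedback inhibitors and 11 early genes induced by ERK that were tested, 6 of 68 (8.82%) were higher in the center of E18.5 controls, against 4.08% of all genes, and 8 of 68 (11.8%) at E14.5, against 7.24%. Another 9 of the 68 were lower in the center at E14.5, and 5 at E18.5. In either direction 25% were called at E14.5 and 16.2% at E18.5, against 14.9% and 11.1% of all genes. At E18.5 the higher genes were 2 receptors or ligands, 1 cascade gene and 3 early genes. In those 3 lists 2, 2 and 0 were lower, while 1 other ETS factor was lower and none of the other feedback inhibitors passed. The higher genes were led by *Shc4*, an adaptor protein that binds receptor tyrosine kinases (1.75 ± 0.17), *Egr3*, an immediate early transcription factor (1.34 ± 0.33), the cyclin gene *Ccnd1* (0.97 ± 0.06) and the neuregulin receptor gene *Erbb3* (0.53 ± 0.07; edgeR adjusted p = 0.00542 or less for the 4). *Shc4* had already been named by the study among genes correlated with *Chrna1* at E18.5, so its place here is not independent support. The median log2 difference of the 5 lists lay between -0.05 and 0.05, near the -0.04 of all genes. At E14.5 the scaffold gene *Ksr1* (0.32 ± 0.06), the ERK phosphatase gene *Dusp4* (0.37 ± 0.10) and *Lrig1*, an inhibitor of receptor tyrosine kinases (0.28 ± 0.05), were higher in the center, and *Fgfr2* (-0.79 ± 0.17), *Fgf2* (-0.74 ± 0.14) and *Fgf7* (-0.58 ± 0.11) were lower.

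In the E18.5 KO 30.9% of the 68 list genes were called in muscle as a whole, against 25.7% of all genes. In its center 13.2% were called, against 13%. These shares lie near those of all genes, so the counts are not particular to the lists. In KO muscle 6 of the 18 cascade genes were lower and 1 was higher. Of the 12 other feedback inhibitors 2 were higher and 2 lower, led by *Dusp9* (1.91) and *Dusp4* (1.20 ± 0.16, edgeR adjusted p = 0.0031), and of the 11 early genes 2 were lower, *Fos* (-1.83 ± 0.19) and *Ier3* (-1.47 ± 0.17). Of the receptors and ligands 4 were higher and 2 lower, among them *Fgfr3* (-1.36), and of the other ETS factors 2 were lower, among them *Ets1* (-0.93). For center enrichment (2.84% of all genes called) the KO differed in *Fgfrl1* (0.44) and *Shc4* (-1.71 ± 0.48, edgeR adjusted p = 0.042), and the cKO in none of the 5 lists (edgeR, 0.424% of all genes called, and 1057 of all genes at an unadjusted p under 0.05). In cKO muscle, where 8.8% of all genes were called, 2 receptors or ligands were higher, *Fgf7* (0.94) and *Nrg1* (0.88), and 1 was lower, *Fgfrl1* (-2.92 ± 0.21, edgeR adjusted p = 0.00096), a receptor for fibroblast growth factors without a kinase domain. The early gene *Ccnd1* (-0.89) was lower there too. Of the 68 list genes 8.82% were called in cKO muscle, near the share of all genes.

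Over single muscle spots *Etv5* went with the endplate genes. Among 5999 genes with enough UMIs, those whose spot values were most like *Etv5* over the 5 control sections were *Prkar1a*, a protein kinase A subunit (mean Pearson r 0.435), *Ache*, the acetylcholinesterase (0.407), *Ufsp1* (0.381), the sodium channel subunit *Scn3b* (0.364) and *Chrna1* (0.346). *Prkar1a*, *Ache*, *Ufsp1* and *Chrna1* are also among the 7 genes that defined the center. Within sections, r between *Etv5* and *Chrna1* was 0.31, 0.19 and 0.15 at E14.5 over 549, 571 and 581 muscle spots, and 0.52 and 0.55 at E18.5 over 3092 and 2199. In the E18.5 KO it was 0.42 over 813 spots and in the cKO 0.29 over 1577. *Etv5* and *Dusp6* gave 0.51 and 0.52 in E18.5 controls, 0.30 in the KO and 0.29 in the cKO, and *Etv5* and *Map2k1* gave 0.51, 0.51, 0.41 and 0.23. Spots of 1 section share a library and differ in depth, so these values describe the sections. The genes most like *Etv4* were *Map3k7cl* (0.167), *Tnmd* (0.161), *Fmod* (0.155), *Col1a2* (0.154) and *Col12a1* (0.154), of which *Tnmd*, *Fmod* and *Col12a1* are tendon markers, but with so few UMIs per spot these values are weak.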

How the data were processed

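The authors aligned reads to mm10 (GRCm38) with Space Ranger and deposited, for each section, raw UMI counts of probes for 19465 genes per spot under tissue. The headers of the deposited counts give version 2.0.0 for E14.5 controls 1 and 2 and the E14.5 KO and 2.0.1 for the others. The paper gives 2.0.1. The 7 genes, the pathway lists and the tests were chosen with earlier results of these data known. Every member is named in each comparison; of a pathway list, up to 3 called genes with the largest log2 difference are described.

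Spots under 1000 UMIs were left out. Muscle spots lay above Otsu's threshold (scikit-image 0.26.0) of the mean log-normalized value of 9 contractile genes (*Acta1*, *Myl1*, *Mylpf*, *Tnnt3*, *Actn2*, *Des*, *Neb*, *Ryr1*, *Ttn*). Counts were summed by section and region and tested with edgeR 4.0.16 in R 4.3.3 (filterByExpr, TMM, glmQLFit and glmQLFTest, Benjamini-Hochberg over all genes tested, called at an adjusted p under 0.05). Muscle and center levels were fitted over all 8 sections with group as the term. Region contrasts had the section as a block, because regions of a section come from 1 embryo; deviations of center and intermediate sums of a section correlated at 0.54, 0.52, 0.19, 0.76 and 0.76 in the controls. The 2 E18.5 values of 0.76 are the same number, since the deviations of the 2 E18.5 controls mirror each other. The study compared spots with a Wilcoxon test, which was not used since spots are not replicates. Ratios of CPM within a section carry 95% intervals from the counts. The alternatives were DESeq2 1.42.0, RLE scaling, no low-count filter, other spot and region rules, leaving out each control section, and scaling to the 9 muscle genes. Differences between the KO effects and between both mutants were added after the data were seen. Counts of the control sections differed by more than sampling noise (chi-square per gene 7.84 to 46.2). The tests were tried on simulated counts with known changes. *Rps6ka1*, *Rps6ka2*, *Rps6ka3*, *Etv1* and *Spry3* of the lists were not analysed here, and some list genes are not reported here. Median depth was 15434 to 45284 UMIs per spot.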

Additional observations from a re-analysis of the deposited data

Results flagged for a closer look

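The following differences between groups passed a test of the difference itself (edgeR). The effect of the KO on *Etv4* in muscle differed between E18.5 and E14.5 by -1.05 on the log2 scale. The center enrichment of controls was larger at E18.5 than at E14.5 by 2.56 for *Etv4*, 1.497 for *Etv5*, 1.28 for *Dusp6*, 1.06 for *Map2k1*, 0.40 for *Spry4* and 0.34 for *Spry1*. At E18.5 the center enrichment of the KO differed from that of controls by -0.85 for *Etv5*, -0.84 for *Dusp6* and -0.48 for *Map2k1*. That of the cKO differed by -1.85 for *Etv4*, -0.82 for *Map2k1*, -0.70 for *Etv5* and -0.52 for *Dusp6*. *Etv4* in the E18.5 mutants rests on the fewest molecules of these, with 27 UMIs in the KO center and 60 in the cKO center.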

How the results depend on the processing

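Of 1914 values of the 7 genes under the alternatives, 1716 kept their side of the threshold without a called reversal. Another 120 lost and 52 gained a call, and 26 reversed sign with either value called. Of these 1716, 80 changed sign with neither value called. Of 65 called values, 16 held under every alternative, and 37 under all but the muscle scaling and the distance regions. Scaling to the 9 muscle genes moved the median of all genes by -3.19 (muscle) and -2.78 (center) between stages, and by 1.40 and 1.02 in the E18.5 KO, and relative to it the genes kept their values. Absolute values reversed: between stages in muscle *Map2k1* -3.11, *Spry1* -2.85 and *Dusp6* -2.93; in the center *Etv4* -1.70, *Etv5* -2.58, *Map2k1* -1.98, *Spry1* -2.20 and *Dusp6* -1.70. In the E18.5 KO they became in muscle 0.31 for *Etv4*, 0.95 for *Spry1*, 1.26 for *Spry4* and 1.38 for *Dusp6*, in the center 0.79 for *Map2k1*, 0.69 for *Spry4* and 0.58 for *Dusp6*, and for cKO against KO -0.70 for *Spry1*. The number of the 7 called became 1 for the E14.5 KO in muscle and center, 6 and 5 for the E18.5 KO, and 1 and 1 for the cKO.

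Regions by distance from other tissue left 0 of the 7 called in the center of controls at both stages and in all differences of enrichment. Values reversed there to -0.074 for *Spry1* and -0.0081 for *Spry4* (E14.5 center), -0.27 for *Etv5* and -0.29 for *Dusp6* (E18.5 periphery), 0.052 for *Etv5* and 0.25 for *Map2k1* (KO enrichment), and 0.29, 0.094 and 0.27 for *Etv5*, *Map2k1* and *Dusp6* (cKO enrichment). With the upper 75% of muscle spots *Dusp6* in the E18.5 periphery was -0.0088 and 0 of the 7 were called. DESeq2 called 1 in the E14.5 KO (muscle and center), 3 in the E14.5 center, 0 and 1 in the E14.5 and E18.5 periphery, 2 in cKO enrichment and 3 in E18.5 muscle against other spots. With no low-count filter 1 was called in the E14.5 KO (muscle and center), 3 in the E18.5 KO center, and 4 and 5 in the periphery. The E18.5 KO center gave 2 with RLE, no UMI minimum, 10% or 25% regions, or a center from 3 receptor subunits. Regions of 25% gave 1 in the E14.5 periphery. The cause of these changes was not tested.

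Without 1 control section, calls ranged from 1 to 3 (E18.5 KO muscle), 0 to 1 (E14.5 KO center), 1 to 2 (E18.5 KO center), 2 to 4 (cKO center), 3 to 6 (E14.5 center), 0 to 2 and 1 to 5 (E14.5 and E18.5 periphery) and 3 to 5 (E18.5 muscle against other spots).

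Without the section as a block, calls were 3 in the E14.5 center, 0 and 1 in the periphery, 0 in KO and 1 in cKO enrichment. Replicate numbers showed no pairing of sections across stages (correlations -0.33 and -0.32, 2 pairs). These 2 values are not independent, since the deviations of the 2 E18.5 controls mirror each other. With the number as a replicate block, 1 gene was called in the E14.5 KO center, and calls ended for *Spry1* between stages (0.35, edgeR adjusted p = 0.0542) and in the E18.5 KO (-0.46, 0.108) and for *Etv4* in both added differences (-1.07, 0.086; 0.97, 0.0587).

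Calls over all genes moved by over 1.5 times in several comparisons: from 308 to between 0 and 4939 in E14.5 KO muscle, 3819 to 12468 at most in E18.5 KO muscle, 1305 to between 81 and 3886 in cKO muscle, 2111 to 6 and 1571 to 29 at least in the E14.5 and E18.5 center, and 402 and 60 to 0 at least in KO and cKO enrichment.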
